A study of Mus musculus with 4 samples.

Results

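The cells described here expressed Nkx1-2 and Sox2 but had no transcript of T or Tbx6, and were taken from the caudal part of mouse embryos at E8.5. They were chosen from single-cell counts by a threshold on those 4 genes: at least 2 unique molecular identifiers (UMIs, each standing for 1 captured transcript) of Nkx1-2 and of Sox2, and 0 of T and of Tbx6. Of 20198 cells that passed the filters on genes, UMIs and mitochondrial share, 916 met this rule (4.54%). They numbered 208 and 214 in the WT libraries and 268 and 226 in the Grhl3-null libraries. All 916 enter the results below, as sums over the cells of each library unless cells are named.

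At the tail end of the embryo, a pool of bipotent axial progenitors, the neuromesodermal progenitors, keeps T (Brachyury, a mesoderm regulator) and Sox2 (a neural regulator) on together, and feeds both the spinal cord and the paraxial mesoderm. Nkx1-2, a homeobox gene, is on in these progenitors and stays on in the preneural tube just rostral to them, where T has been lost and the spinal cord programme has not fully started. Fgf8 and Wnt signals keep cells of the tail end in this immature state, whereas retinoic acid from the somites favours Pax6, Irx3 and the other genes of neural fate. Tbx6 marks the alternative path into presomitic mesoderm. Grhl3 encodes a Grainyhead-like transcription factor of surface ectoderm and of the neural plate border, and mice that lack it fail to close the lower spinal neural tube.

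The mice came from intercrosses of Grhl3+/- animals on a C57BL/6 background. Cells of 5 WT embryos formed one pool and cells of 3 Grhl3-null embryos the other, both from the trypsin-dissociated caudal part of the embryo, and 2 droplet reactions were run on each pool (10x Genomics 3' v3.1 chemistry). The 2 libraries of a genotype are thus repeats of one pool: the spread between them is technical, p-values measure only that spread, and no value here carries the spread between embryos. The deposited matrices held 24239 barcodes. Total UMIs came to 230556666 for WT replicate 1, 224056649 for WT replicate 2, 232903564 for Grhl3-null replicate 1 and 217559026 for Grhl3-null replicate 2. The filters kept 88.2% and 89.8% of WT barcodes but 78.4% and 77.4% of Grhl3-null barcodes. In the chosen cells the median cell held 34491, 35071.5, 37673.5 and 35922 UMIs in the same order, and any pair of libraries shared 5 to 7 cell barcodes.

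The genes of the rule are given as a description only. The median Nkx1-2 count per chosen cell was 5 in WT (both libraries), 4 in Grhl3-null replicate 1 and 3 in Grhl3-null replicate 2, with highest counts of 38, 23, 21 and 19. The median Sox2 count was 7 and 8 UMIs in WT and 8 in both Grhl3-null libraries. Just outside the rule, the 522 cells with a single T transcript carried 76.9 CPM (UMIs per 1000000 UMIs summed) of Fgf8 against 41.8 CPM in the 916 cells without T, and 44.3 against 70.9 CPM of Pax6. The 250 chosen cells with exactly 2 Nkx1-2 UMIs had 18.9 CPM of Fgf8, and the 352 cells with 1 had 11.6 CPM. Cells just inside and just outside the T limit thus differed in both genes, as a description of cells that the limit itself separated.

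The name preneural was checked on 2 markers that the rule did not use. Hes3, a Notch-family repressor of the tail-end neural progenitors, was present at 103, 107, 70.2 and 73.4 CPM in the 4 libraries (WT first, here and below). Lix1, a second marker of caudal progenitors, was present at 47.2, 55.9, 47.5 and 36.6 CPM. A Hes3 UMI was found in 76.9%, 86.0%, 69.0% and 68.1% of the cells, against 2.75%, 3.19%, 0.952% and 3.70% of endothelial cells (at least 2 UMIs of Cdh5 and of Kdr and no Sox2), which should lack the gene and whose median depth was 38758, 35060, 37716 and 38973.5 UMIs. After every cell was thinned to 7500 UMIs, the shares were 48.1%, 55.6%, 35.1% and 36.3%, and at most 0.952% in endothelium. Both markers were therefore present in every library, but neither was particular to the cells without T: Hes3 stood at 86.4 ± 7.24 CPM (SD, n = 4 libraries) in the progenitors that keep T, and Lix1 was higher there (138 ± 7.33 CPM against 46.8 ± 7.89 CPM).

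Markers of other tissues were measured in the same cells. Single defining markers were at or near 0: no UMI of Noto (notochord), Msgn1 (presomitic mesoderm) or Tdgf1 (epiblast) was found in any of the 916 cells, and Eomes, Otx2 and Fgf5 were at 1 UMI in 1 library and at 0 in the others. The lists that hold them were measurable all the same. The 6 notochord genes summed to 14.3, 15.9, 22.7 and 20.9 CPM, with Nog the most abundant, and the 6 presomitic mesoderm genes to 59.9, 56.6, 49.5 and 47.3 CPM, with Rspo3 the most abundant. Tbx6 is one of the presomitic genes and was at 0 by the rule itself, so it adds nothing to that sum. The 10 epiblast and pluripotency genes summed to 51.8, 33.5, 20.6 and 16.1 CPM, mostly Pou5f1. Of the other mesoderm lists, the 16 mesoderm entry genes summed to 200.1, 191, 212 and 209 CPM, led by Cited1, and the 6 lateral plate genes to 62.0, 40.2, 68.8 and 67.5 CPM, led by Foxf1. The 6 paraxial mesoderm genes summed to 80.4, 77.6, 159 and 132 CPM, led by Aldh1a2. Among these lists and those that follow, the epiblast, presomitic, gut endoderm and surface ectoderm sums lay lower in both Grhl3-null than in both WT libraries. The sums of notochord, paraxial, mesoderm entry, lateral plate, visceral endoderm, germ cell and endothelial genes lay higher. The 8 gut endoderm genes summed to 60.3, 64.6, 44.5 and 54.8 CPM, the 8 visceral endoderm genes to 10.5, 6.71, 17.5 and 12.6 CPM and the 5 germ cell genes to 26.5, 32.6, 38.6 and 41.3 CPM, mostly Ifitm3. The 10 surface ectoderm genes summed to 429, 254, 240 and 208 CPM, with Krt8 the most abundant, and the 8 endothelial genes to 39.2, 34.7, 42.3 and 71.9 CPM, with Egfl7 the most abundant. The 7 haemoglobin genes summed to 40.3, 30.0 and 33.4 CPM in 3 libraries but to 491 CPM in Grhl3-null replicate 2, led by Hba-x. That library stands apart from the other 3 in these transcripts, and its endothelial sum was also the highest of the 4.

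The targeted gene was read in every library as a check on the labels. Grhl3 lies on mm10 chromosome 4, 135541888 to 135573630, on the minus strand. In the chosen cells, WT libraries gave 84 and 66 UMIs, or 9.48 and 7.03 CPM, whereas Grhl3-null libraries gave 1 and 0. The ratio of WT to Grhl3-null was 172 with an exact 95% counting interval of 30.4 to 6828. Of the WT cells, 14.9% and 9.81% had a Grhl3 UMI (31 and 21 cells; Clopper-Pearson 95% intervals 10.4% to 20.5% and 6.18% to 14.6%), as did 1.83% and 0% of WT endothelial cells and 0.373% and 0% of the Grhl3-null cells; 0 of 226 cells allows a share of up to 1.62% (upper Clopper-Pearson limit). Grhl3 transcripts were thus found in both WT libraries and almost absent from the Grhl3-null libraries, as their label says, and a cell with 0 UMIs at this level may still express the gene. Of its relatives, Grhl2 was measurable and not called between genotypes (4.18 and 2.87 CPM in WT and 2.61 and 2.44 CPM in Grhl3-null), while Grhl1 did not pass the filter on low counts.

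The share of preneural cells was higher in both Grhl3-null libraries than in both WT libraries. They made up 3.81% (95% interval 3.32% to 4.35%) and 4.18% (3.65% to 4.77%) of filtered cells in WT, and 5.53% (4.91% to 6.22%) and 4.73% (4.14% to 5.37%) in Grhl3-null. The genotype values did not overlap, but the interval of Grhl3-null replicate 2 overlapped those of both WT libraries. The means were 4.00% ± 0.264 and 5.13% ± 0.571 (SD, n = 2 libraries each), a log2 ratio of 0.36. The exact two-sided permutation test gave p = 0.333, the smallest value that 2 libraries against 2 can give. The difference shrank to a log2 ratio of 0.08 when cells were thinned to 7500 UMIs and chosen by at least 1 UMI of Nkx1-2 and Sox2 (exact permutation p = 0.667) and to 0.13 among cells with at least 2 Sox2 UMIs (exact permutation p = 0.667).

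**Figure D1:**
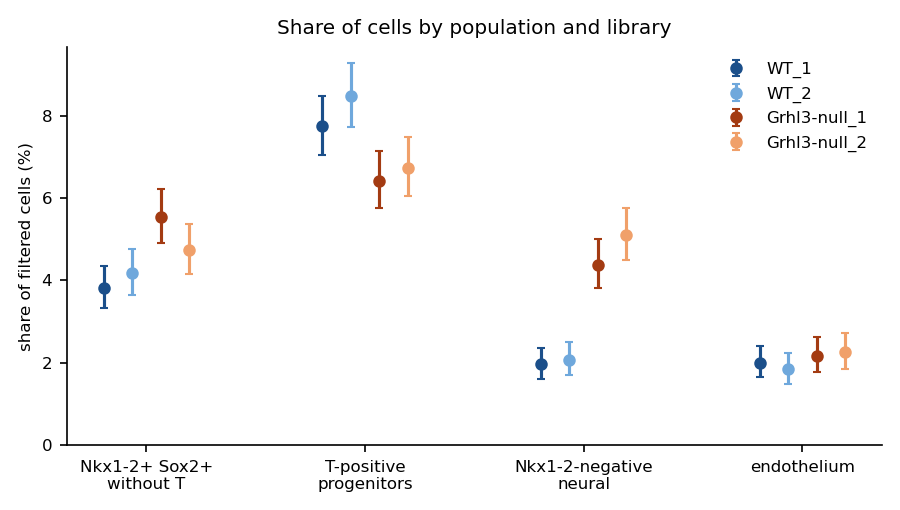
Share of filtered cells (%, vertical axis) in the Nkx1-2+ Sox2+ cells without T, the T-positive progenitors, the Nkx1-2-negative neural cells and endothelium (horizontal axis). Each point is 1 library (blue shades WT, orange and brown Grhl3-null) and each bar its 95% Clopper-Pearson interval, which covers counting error only. The Grhl3-null points lie above the WT points for the cells without T and for the neural cells, and below them for the T-positive progenitors. In endothelium they also lie above, by a smaller amount.

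The neighbouring populations were counted in the same way, and their libraries did not overlap between genotypes (exact permutation p = 0.333 for each, the smallest possible). T-positive progenitors (at least 2 UMIs of Nkx1-2, Sox2 and T, no Tbx6; 1490 cells) made up 8.12% ± 0.519 in WT and 6.58% ± 0.221 in Grhl3-null. Neural cells without Nkx1-2 (at least 2 UMIs of Sox2, none of Nkx1-2, T or Tbx6, at most 1 of Epcam; 669 cells) held 2.02% ± 0.0791 and 4.74% ± 0.513. Among all cells with Nkx1-2 and Sox2 and without Tbx6, the share without T was 27.0% ± 0.884 in WT and 36.2% ± 3.00 in Grhl3-null, a comparison added after the values were seen. Endothelium, an unrelated tissue, did not overlap between genotypes either (2.00% and 1.84% in WT against 2.17% and 2.26% in Grhl3-null, log2 ratio 0.21, exact permutation p = 0.333). A T count of 0 need not mean that a cell lacked T: between 38.5% and 41.8% of T-positive progenitors had no T left after thinning to 7500 UMIs. The chosen cells were deeper (medians of 34491 to 37673.5 UMIs), and how often T was missed at their own depth was not measured.

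The sex of the cells differed between the pools and cannot be told apart from genotype in the pooled values. From Xist and 4 Y-linked genes, 792 of the 916 cells could be assigned a sex: 366 male and 426 female. Male cells made up 22.2% and 31.9% of the assigned cells in WT and 62.1% and 64.0% in Grhl3-null. The gap was wider in the Nkx1-2-negative neural cells (8.00% and 9.47% against 89.3% and 93.0%). Since each sex within a pool stands for fewer embryos than the pool, values within male cells and within female cells are given beside several of the genotype results. The log2 ratio of the share was 0.49 in male cells (exact permutation p = 0.333) and 0.14 in female cells (exact permutation p = 0.667).

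Compared with the progenitors that keep T, the cells without T carried more RNA of neural genes and less of caudal progenitor genes. Of 12425 genes tested, 248 were higher (2.00% of all tested) and 168 lower (1.35%) by the threshold of 1 on the log2 fold and 0.05 on the adjusted p, in edgeR with library as a term. Of 21 neural genes tested, 14 were higher and 0 lower, and of 16 genes of the dorsal neural tube and border, 8 were higher and 0 lower. Of 13 caudal progenitor genes, 8 were lower and 0 higher. In sums over cells, fewer positive cells and less RNA per cell cannot be told apart. The populations were set by their T counts, so genes that vary with T from cell to cell are parted by that choice, and the T-positive cells were deeper (median 41353, 42151, 48357 and 46432.5 UMIs). Their male share also differed (28.9%, 26.2%, 42.1% and 50.6%, beside 22.2%, 31.9%, 62.1% and 64.0% without T), which the library term does not remove.

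Pax6, the paired-box gene that opens the spinal neural programme, was at 47.4, 60.1, 82.6 and 89.4 CPM in the 4 libraries without T and at 8.52, 12.02, 12.4 and 16.5 CPM in the T-positive progenitors. Every library of the first set lay above every library of the second (log2 fold change 2.49 ± 0.06 (SE), adjusted p = 6.07e-14). Fgfr2, an Fgf receptor, showed the same pattern (53.1 ± 10.5 CPM against 12.1 ± 1.72 CPM, log2 fold change 2.12 ± 0.07 (SE), adjusted p = 2.57e-12). Among the 12 higher genes of largest fold were also the neural genes Fam181b (2.09), Nrcam, a neural adhesion molecule (2.08), Irx1 (1.98) and Sox21 (1.85). Rfx4, a ciliogenic factor of the neural tube (1.71), Olig3, a dorsal progenitor factor (1.67), the signalling genes Fgf15 (1.82) and Gdf10 (1.73), and Cpn1 (1.78) and 1700011H14Rik (2.82) completed them (log2 fold changes).

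Several neural genes that were already abundant with T were not called. Sox3 (0.39), Sox11 (0.14), Ncam1 (0.08) and Cdh2 (-0.09) all stayed under the log2 threshold of 1, whereas Sox1 was higher (26.8 ± 4.30 CPM against 9.26 ± 1.77 CPM, log2 fold change 1.51 ± 0.15 (SE), adjusted p = 1.27e-06). Neurog2, a proneural factor, was higher as well (18.4 ± 1.83 CPM against 7.85 ± 2.92 CPM, log2 fold change 1.24 ± 0.18 (SE), adjusted p = 6.62e-05). Among the dorsal genes, Pax3 (1.20), Zic1 (2.34), Tfap2a (1.17) and Tfap2c (1.80) were higher, and Msx1 was not (-0.43).

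The lower genes of largest fold included several signals of the tail end. Fgf8, the ligand that maintains the progenitors, was at 43.7, 53.3, 35.5 and 36.4 CPM without T and at 330.4, 346, 356 and 368 CPM with T. No library of one set reached the other (log2 fold change -3.07 ± 0.08 (SE), adjusted p = 6.07e-14). Rspo3, a secreted amplifier of Wnt signalling (25.0 ± 2.53 CPM against 187 ± 10.6 CPM), and Cyp26a1, which degrades retinoic acid (15.2 ± 3.27 CPM against 113 ± 8.80 CPM), were lower by similar folds (log2 -2.92 and -2.91). Fgf17 (-2.23), Fgf18 (-2.40), Wnt3a (-2.39), the homeobox gene Evx1 (-2.20) with its antisense neighbour Evx1os (-2.64), the clock gene Hes7 (-2.18), the cell-cycle inhibitor Cdkn1a (-2.496), Tril (-2.40) and Limch1 (-2.14) were the others among the 12.

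Not all caudal genes were called. Cdx1 was at 111 ± 44.2 CPM without T and 113 ± 10.2 CPM with T and Hes3 at 88.3 ± 19.1 CPM and 86.4 ± 7.24 CPM. These means pool opposite directions in the genotypes. In WT, Cdx1 was higher without T (162 and 133 against 120 and 122 CPM), as was Hes3 (103 and 107 against 95.1 and 89.4 CPM). In Grhl3-null, Cdx1 was lower without T (83.8 and 65.9 against 101 and 107 CPM), as was Hes3 (70.2 and 73.4 against 81.8 and 79.3 CPM). Grsf1 lay below in all 4 libraries (211, 196, 124 and 127 CPM against 293, 329, 311 and 326 CPM, log2 fold change -0.96 ± 0.11 (SE), adjusted p = 6.32e-06) but just short of the fold threshold, Sp8 was at -0.52, and Cdx2 (-1.10) and Cdx4 (-1.06) were lower. Signalling lists were mixed: of 10 Wnt ligands 4 were higher and 3 lower (median log2 fold change 0.71), of 7 Fgf ligands 1 higher and 4 lower, and of 14 Fgf receptors and feedback genes 2 higher and 2 lower. Of the Wnt feedback genes 6 of 17 were lower, among them Axin2 (-1.09) and Sp5 (-1.45), and 1, the secreted Wnt antagonist Sfrp5, was higher (3.29). Mesoderm entry genes were lower in 6 of 13 and higher in 0. In the retinoic acid list, the receptor and response gene Rarb (2.03) and the retinal reductase Dhrs3 (1.42) were higher and Cyp26a1 was the single lower gene of 12. Of the 14 DNA replication and 14 mitosis genes, 0 passed the fold in edgeR or DESeq2, although 11 and 3 had an adjusted p under 0.05 in edgeR. The share of all genes at that p without a fold was not counted. A separate fit on the thinned sums, at equal depth per cell, called 127 higher and 112 lower genes, and all 24 genes named above by rule were called in it too.

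**Figure D2:**
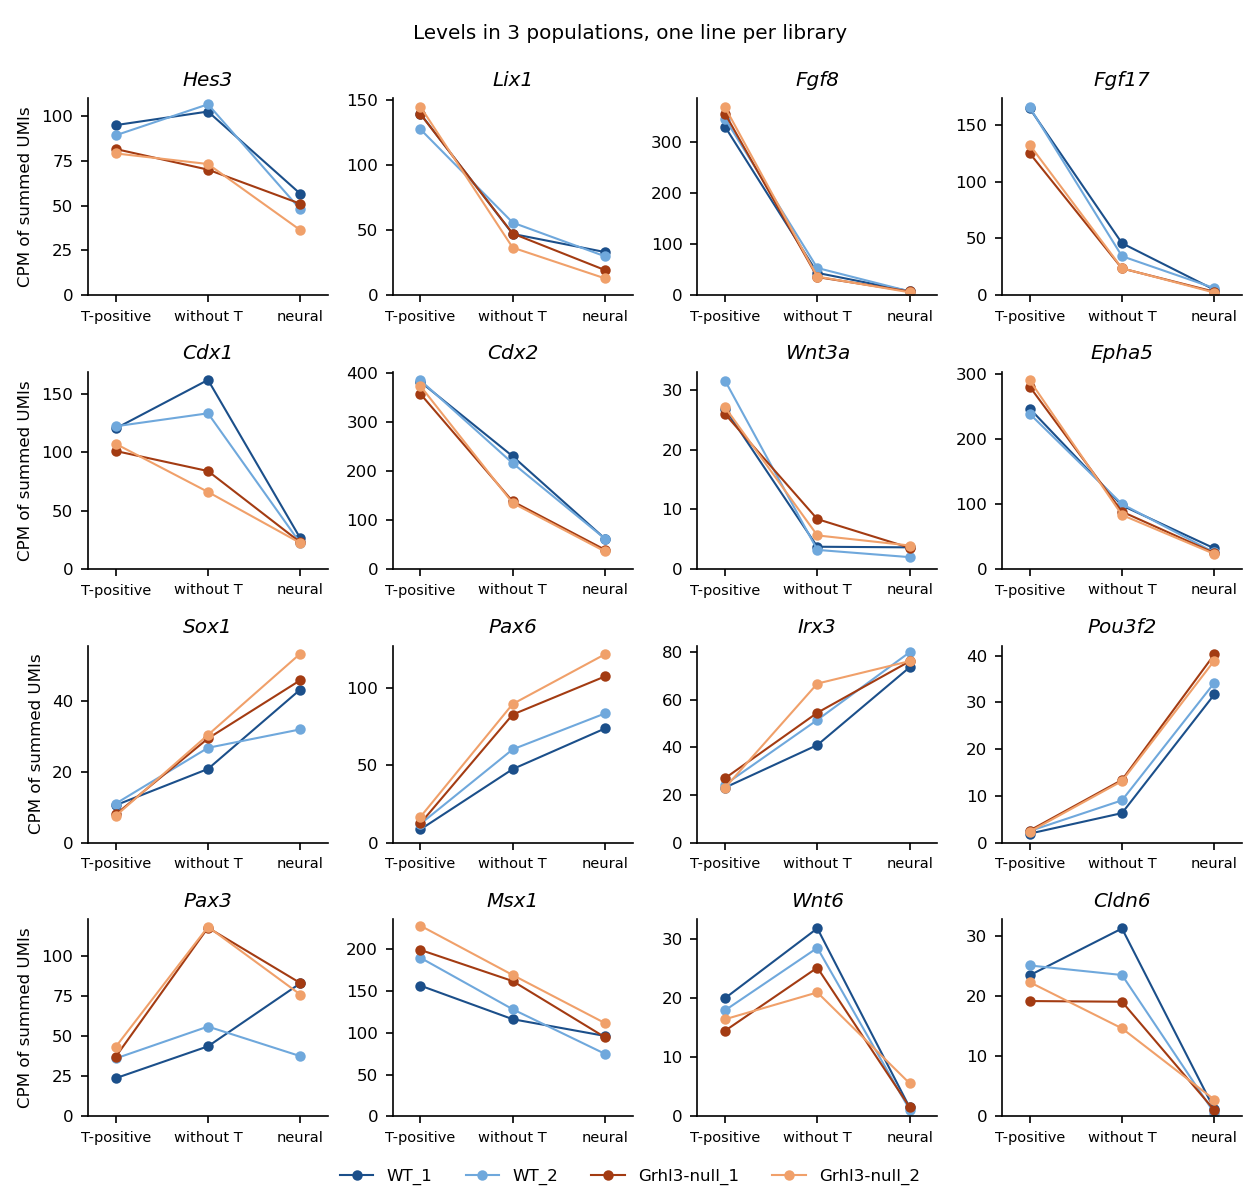
Levels of 16 genes (CPM of summed UMIs, linear vertical axes) in T-positive progenitors, cells without T and Nkx1-2-negative neural cells (horizontal axis). Each line joins the values of 1 library (blue shades WT, orange and brown Grhl3-null). Fgf8 and Cdx2 step down from left to right in all 4 libraries, Sox1, Pax6, Irx3 and Pou3f2 step up, and Wnt6 and Cldn6 are lowest in the neural cells.

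Compared with neural cells without Nkx1-2, the preneural cells had more RNA of caudal genes and less of ventral neural genes. Of the same 12425 genes, 253 were higher (2.04% of all tested) and 142 lower (1.14%) in the preneural cells. Caudal progenitor genes were higher in 9 of 13 and lower in 0, and all 3 Cdx genes were higher. Of 13 Hedgehog and ventral genes, 7 were lower and 0 higher. The neural cells had a median depth of 30790, 31807.5, 32670 and 30889.5 UMIs. Their male share was 8.00%, 9.47%, 89.3% and 93.0%, beside 22.2%, 31.9%, 62.1% and 64.0% in the preneural cells. The mix of embryos thus differed between the populations within a library, which the library term does not remove.

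Cdx2, which drives posterior identity, was at 231, 216, 138 and 135 CPM against 61.8, 61.8, 39.2 and 35.8 CPM in the neural cells. The 2 sets of libraries did not overlap (log2 fold change 1.88 ± 0.13 (SE), adjusted p = 4.79e-08). Cdx1 (2.13) and Cdx4 (1.75) were higher by similar folds. Fgf8 (42.2 ± 8.27 CPM against 6.999 ± 0.984 CPM), Fgf17 (3.03) and the Fgf response genes Etv4 (1.91), Spry4 (2.84), Il17rd (1.37) and Etv5 (1.19) were also higher. Of 14 Fgf receptors and feedback genes, 6 were higher and 1, the receptor Fgfr3 (-1.29), was lower. A Fgf8 UMI was found in 53.8%, 54.7%, 44.4% and 43.4% of preneural cells, 21.5%, 21.7%, 15.6% and 15.2% of neural cells and 27.5%, 23.4%, 18.1% and 27.8% of endothelial cells. At equal depth, after thinning, the shares were 26.9%, 26.2%, 17.2% and 18.6% in preneural cells, 7.48%, 6.60%, 4.72% and 2.87% in neural cells and 7.34%, 5.32%, 3.81% and 4.63% in endothelium. The preneural shares stood above endothelium in 4 of 4 libraries at either depth, and the neural shares lay near it.

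The other higher genes of largest fold were Epha5, an ephrin receptor (1.85), Hapln1, a matrix link protein (1.80), Acer2 (1.78), the tight-junction gene Cldn6 (3.67), the Wnt ligand Wnt6 (3.12) and Hba-x. Hba-x stood at 243 CPM in Grhl3-null replicate 2, spread very unevenly over its cells as given above, and at no more than 13.2 CPM in the other libraries. Surface ectoderm genes were higher in 7 of 9, among them Sfn (4.68), Trp63 (4.89) and Tfap2a (2.21), beside the limit of 1 Epcam UMI that was set for the neural cells and not for the preneural cells. Whether that limit accounts for these values was not tested.

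The lower genes of largest fold included Olig2, a motor neuron progenitor factor (2.71 ± 1.40 CPM against 39.1 ± 14.5 CPM, log2 fold change -3.90 ± 0.27 (SE), adjusted p = 6.09e-08), the floor plate gene Foxa2 (-3.098), Nkx6-1 (-1.79), Nr2f1, a nuclear receptor (-2.17), and the Notch target Hes5 (-1.43). Fam181b (-1.97), Fez1 (-1.999), Spon1 (-1.86), Pou3f2, a neural POU factor (-1.79), Kcne1l (-1.46), Ckb (-1.41) and Fmn2 (-1.40) were the others. Pax6 lay at 69.9 ± 19.5 CPM in preneural and 96.4 ± 21.9 CPM in neural cells and was not called past the fold (log2 fold change -0.48 ± 0.06 (SE), adjusted p = 1.62e-05). In order of level, Pax6, Sox1, Irx3 and Pou3f2 were lowest with T, intermediate in the cells without T and highest in the neural cells, as a description of means over 4 libraries. Of 21 neural genes, 4 were lower than in the neural cells and 0 higher.

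Hox genes encode position along the trunk. Of 39 Hox genes 30 were tested, and 5 were lower than with T and 0 higher. Against the neural cells 0 passed the fold in edgeR, where 14 had an adjusted p under 0.05, and 0 in DESeq2. How many of all genes had such a p without a fold was not counted. Hoxa9 (73.7 ± 2.25 CPM against 171 ± 13.2 CPM, log2 fold change -1.22 ± 0.12 (SE), adjusted p = 1.11e-06), Hoxd9 (-1.22) and Hoxc10 (-1.27) were among the 5, whereas Hoxb9 was not called (386 ± 49.6 CPM against 379 ± 57.5 CPM). The median log2 fold change against T-positive progenitors was -0.02 for paralogue groups 1 to 3, -0.56 for groups 4 to 8 and -0.99 for group 9, beside 0.00 over all genes tested.

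The 916 cells also varied among themselves. After thinning every cell to 7500 UMIs, 6829 genes with a mean of at least 0.1 UMI were ranked by the lowest of their 4 ratios of variance to mean, 1 per library. The median gene had a ratio of 0.933, and 40 genes had at least 2 in every library. The 15 highest included 6 mitochondrial transcripts, led by mt-Atp6 (5.40) and mt-Co3 (4.24), the cyclin Ccnd2 (4.02), the keratins Krt8 (3.86) and Krt18 (3.69), the imprinted genes H19 (3.73) and Mest (3.15), and the nuclear RNA Malat1 (2.93). The remaining 3 were Wnt6 (3.00), Id3, a Bmp target (2.96), and Pax3, the dorsal neural tube regulator (2.77). Mitochondrial and keratin transcripts thus varied from cell to cell within each library along with the dorsal genes.

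Within the members, several caudal genes were higher and several neural genes lower in cells with more Nkx1-2. In thinned cells, 334 had 0, 315 had 1 and 267 had at least 2 Nkx1-2 UMIs. Between the first and the last of these bins, the mean over libraries went from 36.8 to 78.3 CPM for Fgf8, from 72.4 to 126 CPM for Epha5 and from 143 to 251 CPM for Cdx2, and was higher in 4 of 4 libraries for each. Hes3 went from 86.4 to 114 CPM, Cdx1 from 84.8 to 162 CPM and Cdx4 from 145 to 236 CPM, again in 4 of 4. In the other direction, Nkx6-1 went from 32.0 to 18.6 CPM, Pax3 from 98.0 to 61.4 CPM, Aldh1a2, which makes retinoic acid, from 54.4 to 30.7 CPM, and Hes5 from 69.9 to 29.1 CPM, lower in 4 of 4 libraries. Sox1 went from 30.2 to 21.9 CPM, while Pax6 was lower in 3 of 4. Sox2, a gene of the rule, went the other way (219 to 240.2 CPM, higher in 4 of 4). Nkx1-2 chose the cells, so these values are a description and carry no test.

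**Figure D3:**
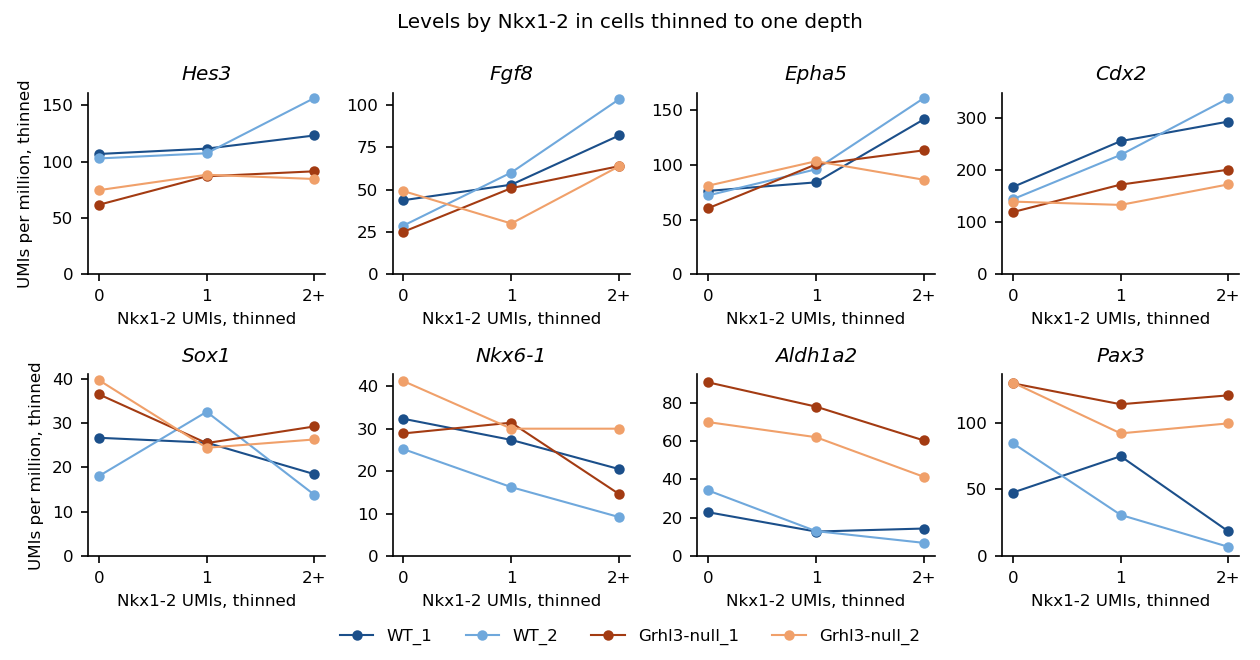
Levels of 8 genes (CPM of thinned UMIs, linear vertical axes) in preneural cells with 0, 1 or at least 2 Nkx1-2 UMIs after thinning to 7500 UMIs (horizontal axis). Each line joins the values of 1 library (blue shades WT, orange and brown Grhl3-null). Hes3, Fgf8, Epha5 and Cdx2 are higher in the last bin than in the first in all 4 libraries, and Sox1, Nkx6-1, Aldh1a2 and Pax3 are lower.

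Across cells, the summed UMIs of the caudal list and of the neural list had a Pearson correlation of -0.27, -0.39, -0.35 and -0.34 in thinned cells (n = 208, 214, 268 and 226 cells that share a library and a fixed depth). At this depth a count of 0 does not show that a transcript was absent.

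Between genotypes, the preneural cells of the Grhl3-null pool had less RNA of 6 of 13 caudal progenitor genes and 4 of 10 surface ectoderm genes, and more of 7 of 15 dorsal and border genes. Of 11839 genes tested in edgeR, 97 were higher in Grhl3-null (0.819% of all tested) and 109 lower (0.921%) when the adjusted p had to be under 0.05 and the log2 fold 0.5 or more. Of 13 caudal progenitor genes, 6 were lower and 1 higher (median log2 fold change -0.45, beside 0.01 over all genes). Of 15 dorsal and border genes, 7 were higher and 0 lower (median 0.57). Of 10 surface ectoderm genes, 4 were lower and 0 higher (median -0.67). The comparison is of one pool with the other, with sex differing between them. Without WT replicate 2 the lower genes numbered 164, and in DESeq2 the counts were 38 higher and 54 lower.

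Among the caudal genes, Cdx1 was at 162 and 133 CPM in WT and 83.8 and 65.9 CPM in Grhl3-null. Both Grhl3-null libraries lay below both WT libraries (log2 fold change -0.99 ± 0.10 (SE), adjusted p = 4.84e-05), and the log2 fold change was -1.09 in male and -0.76 in female cells. Cdx2, its paralogue, was at 231 and 216 CPM in WT and 138 and 135 CPM in Grhl3-null (log2 fold change -0.73 ± 0.05 (SE), adjusted p = 1.08e-06). Its libraries did not overlap either, but the fold was -1.06 in male and -0.16 in female cells. Grsf1, an RNA-binding protein downstream of Wnt signalling, was at 211 and 196 CPM in WT and 124 and 127 CPM in Grhl3-null (log2 fold change -0.71 ± 0.05 (SE), adjusted p = 1.71e-06), with -0.69 in male and -0.69 in female cells. The Grsf1 fold was thus nearly the same in both sexes and that of Cdx2 was not, a contrast between the sexes that was not tested.

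Hes3 was at 103 and 107 CPM in WT and 70.2 and 73.4 CPM in Grhl3-null (log2 fold change -0.56 ± 0.06 (SE), adjusted p = 6.38e-05; -0.79 in male and -0.19 in female cells). The ligands Wnt8a (20.8 and 14.7 CPM in WT and 5.75 and 5.10 CPM in Grhl3-null, log2 fold change -1.71 ± 0.19 (SE), adjusted p = 9.75e-05) and Fgf17 (-0.78) were also lower. Wnt3a, a ligand of the same region, was the single higher gene of the list, from a low level (3.73 and 3.19 CPM in WT and 8.36 and 5.63 CPM in Grhl3-null, log2 fold change 1.02 ± 0.25 (SE), adjusted p = 0.0298). Fgf8 was not called (43.7 and 53.3 CPM in WT and 35.5 and 36.4 CPM in Grhl3-null, log2 fold change -0.45 ± 0.09 (SE), adjusted p = 0.0108), and Cdx4 was not called (-0.40) although its fold was -1.08 in male and 0.39 in female cells. Of the Fgf feedback genes, Etv4 (-0.53) and Spry1 (-0.61) were lower and the receptor Fgfr3 (1.02) higher, of 14 tested. Among 7 Fgf ligands tested, Fgf17 was the 1 lower gene and Fgf15 the 1 higher (28.1 and 35.3 CPM in WT and 53.3 and 55.9 CPM in Grhl3-null). The Fgf15 fold was -0.31 in female cells.

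Of the dorsal and border genes, Pax3 changed in both sexes. It was at 43.7 and 56.0 CPM in WT and 118 and 118 CPM in Grhl3-null, and neither Grhl3-null library reached down to the WT values (log2 fold change 1.22 ± 0.09 (SE), adjusted p = 1.37e-06; 1.595 in male and 0.85 in female cells). Zic1 (2.96), Msx2, a Bmp target (1.07), Tfap2b (2.26), Dlx5 (1.13), Sox9 (1.08) and Foxd3, a neural crest specifier (2.35), were the others, and most had few counts. Foxd3 was at 0 and 1.81 CPM in WT and 4.01 and 5.84 CPM in Grhl3-null, and Zic1 was at 1.24 and 2.02 CPM in WT and 13.5 and 12.5 CPM in Grhl3-null. Msx1 was not called (0.42). Of the 14 Bmp genes, Id3 (270.1 and 304 CPM in WT and 422 and 456 CPM in Grhl3-null, log2 fold change 0.59 ± 0.05 (SE), adjusted p = 1.57e-05), Msx2 and the antagonist Nog (0.98) were higher and 0 lower. Id3 lies on chromosome 4, 0.602 Mb from the start of Grhl3, and its fold was 0.82 in male and 0.29 in female cells. Msx3, a dorsal homeobox gene outside the lists, was at 6.32 and 3.73 CPM in WT and 20.04 and 17.4 CPM in Grhl3-null, with a fold of 4.90 in male and -0.63 in female cells, opposite in sign between the sexes.

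Retinoic acid genes gave 2 higher of 12. Aldh1a2 was at 18.4 and 24.1 CPM in WT and 75.4 and 64.3 CPM in Grhl3-null (log2 fold change 1.70 ± 0.11 (SE), adjusted p = 9.55e-07), with 2.22 in male and 0.14 in female cells (the contrast between the sexes was not tested). It was also the most abundant gene of the paraxial mesoderm list given above, and the part of other cells in its level was not tested. Crabp1, a retinoic acid carrier, was at 109 and 123 CPM in WT and 172 and 171 CPM in Grhl3-null (log2 fold change 0.55 ± 0.06 (SE), adjusted p = 7.99e-05; 0.81 in male and 0.36 in female cells). Among 21 neural genes, Pax6 (47.4 and 60.1 CPM in WT and 82.6 and 89.4 CPM in Grhl3-null, log2 fold change 0.65 ± 0.09 (SE), adjusted p = 7.43e-04; 0.33 in male and 0.26 in female cells) and Pou3f2 (0.77; 1.154 in male and -0.46 in female cells) were higher and Fabp7 (-1.73) lower. Nr2f1, a nuclear receptor, was at 4.29 and 10.2 CPM in WT and 21.3 and 17.3 CPM in Grhl3-null, with a fold of 2.75 in male and -0.70 in female cells.

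**Figure D4:**
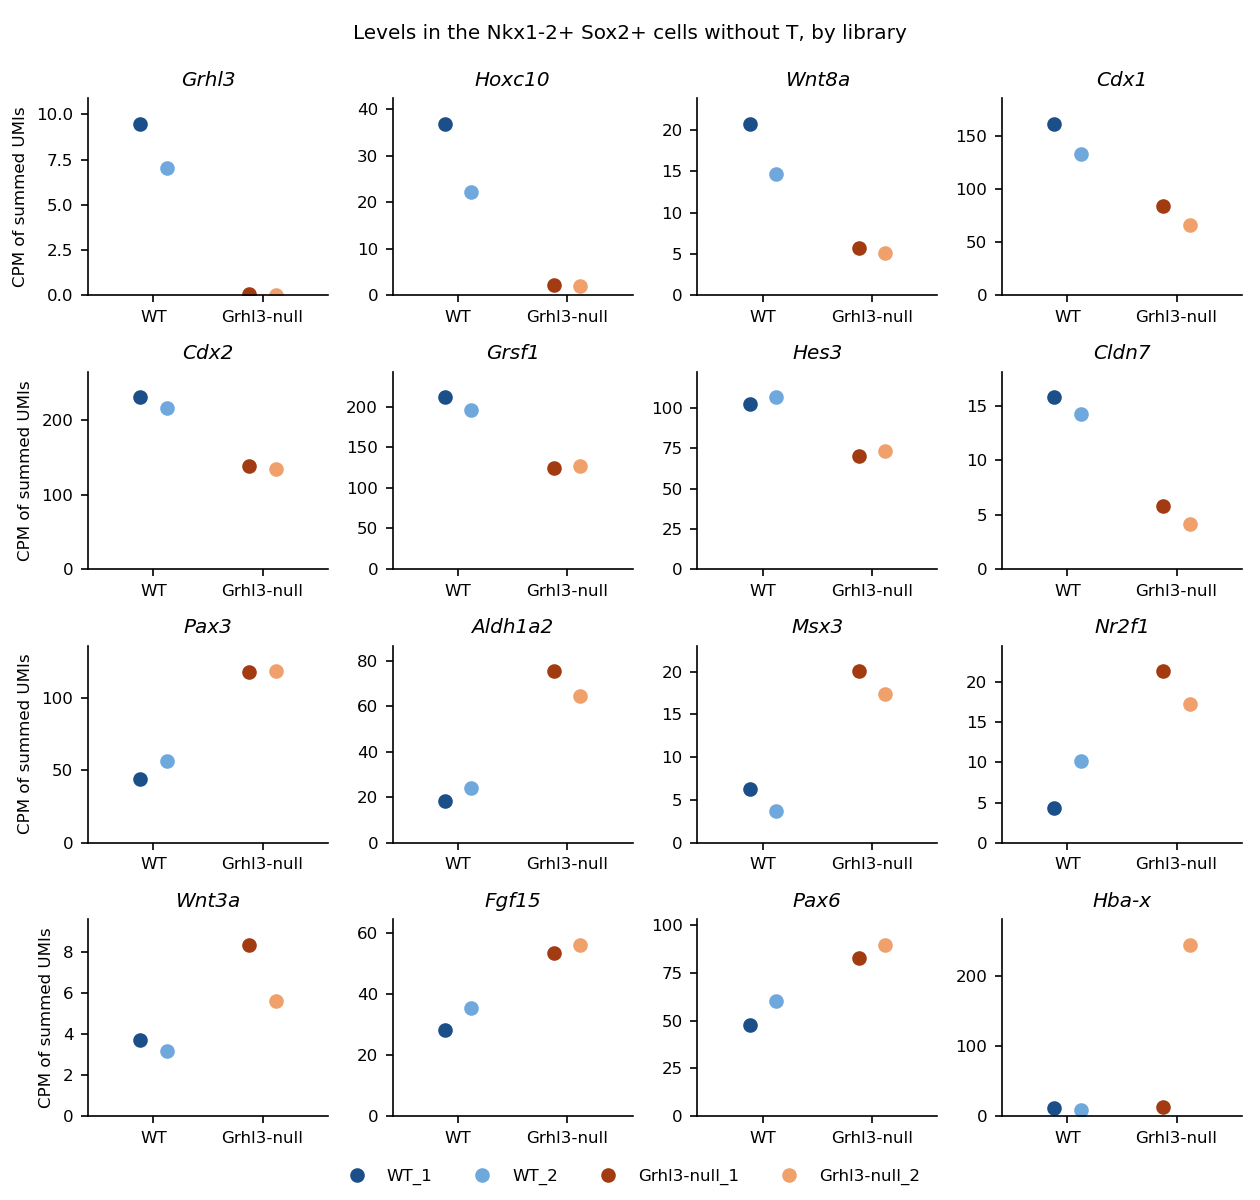
Levels of 16 genes (CPM of summed UMIs, vertical axes from 0) in preneural cells of the 4 libraries (each point 1 library, in a colour of its own). Grhl3, Hoxc10, Wnt8a, Cdx1, Cdx2, Grsf1, Hes3 and Cldn7 lie lower in both Grhl3-null libraries than in both WT libraries, and Pax3, Aldh1a2 and Msx3 lie higher, whereas the high value of Hba-x is that of Grhl3-null replicate 2 alone.

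Among the lower surface ectoderm genes were Sfn, an epidermal 14-3-3 protein (21.7 and 11.8 CPM in WT and 2.27 and 3.50 CPM in Grhl3-null, log2 fold change -2.57 ± 0.29 (SE), adjusted p = 1.44e-04; -2.71 in male and -1.99 in female cells), the adhesion gene Epcam (-1.07) and the claudin Cldn6 (-0.70). Cldn7 (15.8 and 14.3 CPM in WT and 5.84 and 4.14 CPM in Grhl3-null, log2 fold change -1.59 ± 0.18 (SE), adjusted p = 1.25e-04) and the epithelial cadherin Cdh1 (-1.09) were lower as well, as was the pluripotency factor Pou5f1 (35.4 and 22.0 CPM in WT and 11.7 and 10.4 CPM in Grhl3-null, log2 fold change -1.38 ± 0.18 (SE), adjusted p = 5.21e-04). The list summed to 429, 254, 240 and 208 CPM, highest in WT replicate 1, and its most abundant gene Krt8 was not called (129 and 57.1 CPM in WT and 73.7 and 67.4 CPM in Grhl3-null). Whether surface ectoderm RNA in WT cells carries part of this was not tested. Sfn lies on chromosome 4 near Grhl3 itself.

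The lower Hox genes belonged to paralogue groups 8 to 10. Of 27 Hox genes tested, 5 were lower and 0 higher. Hoxc10 was at 36.9 and 22.1 CPM in WT and 2.27 and 2.02 CPM in Grhl3-null (log2 fold change -3.78 ± 0.27 (SE), adjusted p = 1.37e-06), and Hoxa10 at 13.5 and 13.6 CPM in WT and 1.48 and 1.91 CPM in Grhl3-null (log2 fold change -3.03 ± 0.21 (SE), adjusted p = 1.37e-06). Both genes tested of groups 10 to 13 were lower, as were Hoxc9 (-0.60) and Hoxd9 (-1.43) of the 4 in group 9 and Hoxd8 (-1.50) of 13 in groups 4 to 8, while 0 of 8 passed in groups 1 to 3. Hoxa9 and Hoxb9 were not called (-0.09 and 0.22). Hoxc9 had opposite signs in the sexes (0.73 in male and -1.03 in female cells), and Hoxc10 was measured in female cells only (-3.32). A Hoxc10 UMI was found in 19.7%, 19.6%, 2.24% and 3.097% of members and in 16.5%, 16.0%, 7.62% and 10.2% of endothelial cells. The members thus lay slightly above endothelium in WT and below it in Grhl3-null, and the endothelial share itself differed between genotypes. Endothelium therefore cannot serve as a background for this gene.

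Of the Wnt ligands, Wnt1 (2.38) was higher beside Wnt3a, and of 16 Wnt feedback genes Notum (-0.79) was lower. Of 15 Notch genes, Hes3 and Hes6 (-0.50) were lower. Several lists had no called gene in edgeR at these thresholds: Hedgehog and ventral (11 genes), planar cell polarity (19), folate metabolism (16), glycolysis (17), DNA replication (14), mitosis (14) and p53 targets (12). DESeq2 called 0 of them too, and an unadjusted edgeR p under 0.05 was found for 3, 6, 1, 7, 2, 2 and 6 of them in that order. The share of all genes at that unadjusted p was not counted. At an adjusted edgeR p under 0.05 with no minimum fold there were 0, 1, 1, 3, 1, 1 and 2, beside 239 higher and 369 lower of all 11839 genes. Of the mesoderm entry genes, Evx1 (-0.58; -1.03 in male and 0.10 in female cells) was lower and Pdgfra (0.64) higher of 12, and of 9 genes induced by dissociation Fosb (-3.11) was lower. The embryonic globins Hba-x (11.3 and 9.37 CPM in WT and 13.2 and 243 CPM in Grhl3-null) and Hbb-bh1 (6.999 and 5.54 CPM in WT and 7.49 and 148 CPM in Grhl3-null) were called higher through Grhl3-null replicate 2. Without it their folds were 0.34 and 0.25. Their variance to mean ratios in thinned cells of that library were 182 and 87.4, so their UMIs lay very unevenly over its cells. Among genes near Grhl3, Stmn1 (896 and 932 CPM in WT and 289 and 340.2 CPM in Grhl3-null) and Hdac1 (153 and 148 CPM in WT and 62.3 and 62.8 CPM in Grhl3-null) were lower, beside near-identical copies elsewhere that make the assignment of their reads uncertain.

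Sex-linked genes moved with genotype: Xist was at 469.9 and 418 CPM in WT and 298 and 291 CPM in Grhl3-null and the Y-linked Eif2s3y at 9.93 and 12.8 CPM in WT and 27.9 and 27.8 CPM in Grhl3-null. Of the 206 called genes, 155 could be fitted in both sexes, 34 of them with opposite signs, and 16 were called in each sex alone, among them Cdx1, Grsf1, Pax3, Stmn1, Hdac1 and Sfn. Of the 97 higher genes 38 of 89 measured were called in male and 32 of 79 in female cells, and of the 109 lower genes 18 of 82 and 70 of 101. The 97 and 109 include the sex-linked genes, which themselves set the sex calls. Even within a sex one pool is compared with the other, so genotype and the embryos of each pool cannot be told apart for any of these genes.

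**Figure D5:**
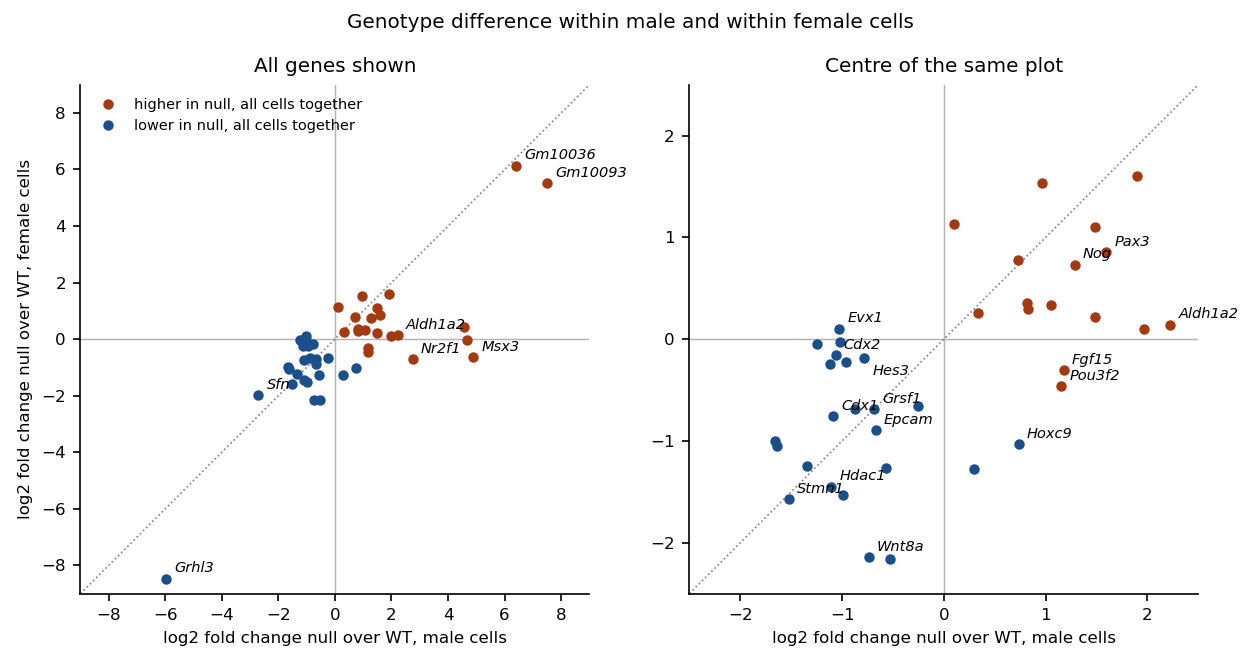
Log2 fold change of Grhl3-null over WT in male cells (horizontal axis) and in female cells (vertical axis) for 47 named genes measured in both sexes, Xist left out, over the whole range (left) and in the centre (right, 39 genes). Each point is 1 gene coloured by its direction in all cells together, and the dotted diagonal marks equal folds. Most points share a sign between the sexes, and 8 have opposite signs.

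Whether the preneural cells differed from their neighbours in the genotype fold was tested by an interaction term. Against T-positive progenitors, 40 genes passed (0.322% of those tested), and against the neural cells 84 (0.676%). Cdx2 was lower in Grhl3-null preneural cells (log2 -0.73) but at -0.09 in T-positive progenitors, a difference of -0.64 ± 0.05 (SE), adjusted p = 1.86e-07. Grsf1 gave -0.72 ± 0.06 (SE), adjusted p = 5.34e-07, and Cdx1 -0.75 ± 0.10 (SE), adjusted p = 2.93e-04. For Cdx2, the same term was -0.99 in male and -0.22 in female cells (adjusted p in edgeR 2.75e-11 and 0.637). Of the named genes that passed against T-positive progenitors, 13 of 16 measured kept their call in male cells and 2 of 15 in female cells. Male cells made up 28.9% and 26.2% of assigned T-positive progenitors in WT and 42.1% and 50.6% in Grhl3-null. Sex thus moved less in the T-positive progenitors than in the preneural cells, and its part in this term was not tested. Against the neural cells, Cdx1 (-0.89 ± 0.20 (SE), adjusted p = 0.0237) and Grsf1 (-0.86 ± 0.10 (SE), adjusted p = 2.30e-05) differed as well. Cdx2 was not called there: its fold in the neural cells was -0.72 (difference -0.01 ± 0.10 (SE), adjusted p = 0.998). Cdx4 (0.94 ± 0.13 (SE), adjusted p = 2.75e-04) and Hoxa9 (0.91 ± 0.11 (SE), adjusted p = 6.50e-05) went the other way, since they were lower in Grhl3-null neural cells (log2 -1.35 and -1.002) and not called in the preneural cells. Within the sexes the Cdx4 difference was 1.45 in male and -0.0144 in female cells, and that of Hoxa9 was -0.14 in male and 1.72 in female cells. All 4 values rest on few neural cells of one genotype: 8 and 9 in WT for the male values, and 18 and 14 in Grhl3-null for the female values. Meanwhile sex moved much further between the genotypes there than in the preneural cells (8.00% and 9.47% male against 89.3% and 93.0%). The counts changed with the library left out: against T-positive progenitors 67, 68, 10 and 7 genes passed without WT replicate 1, WT replicate 2, Grhl3-null replicate 1 and Grhl3-null replicate 2, and against the neural cells 171, 76, 32 and 15.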

How the data were processed

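Per the deposited matrices, the authors counted UMIs per gene and cell with Cell Ranger against mm10 (tool and build from the submitters' processing notes), so the values are raw counts, not normalized. Cells were kept if they had 3000 or more genes, 7500 or more UMIs and a mitochondrial share of 7% or less, then chosen by the 4-gene rule, and their counts summed per library. The members and gene lists were chosen with earlier results of these data known. Sums were tested with edgeR 4.0.16 (limma 3.58.1, R 4.3.3; quasi-likelihood test, TMM, filterByExpr, Benjamini-Hochberg adjustment over all genes), with library as a term between populations and a population by genotype term for the interaction. Every adjusted p comes from edgeR. The thresholds of a call were 0.05 on the adjusted p and, on the log2 fold, 0.5 between genotypes or in the interaction and 1 between populations. The 4 genes of the rule, and Epcam between populations, were not tested. Shares have exact Clopper-Pearson intervals and two-sided exact permutation tests (scipy 1.17.1, Python 3.11.15). Intervals and floors of 3 counts cover counting error only.

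Named were all genes of the lists and all Hox genes, by list, the 8 called genes of largest fold in each direction between genotypes at a mean of at least 10 CPM, the 12 in each direction between populations at 20 CPM in the higher one, the 15 most variable genes and Grhl3. Male cells had 2 or more UMIs summed over 4 Y-linked genes and no more than 2 from Xist. Female cells had 3 or more from Xist and no more than 1 from the Y-linked genes. Scrublet (scanpy 1.11.5) with its automatic threshold marked 0, 2, 2 and 3 cells and was taken not to have worked, so doublets were left in, and the 5% highest scores were removed only as an alternative. Members among that 5% numbered 6, 5, 16 and 14. The 2 libraries of a genotype were not duplicates, since their summed counts spread beyond sampling noise (chi-square over its degrees of freedom 1.96 in WT and 2.48 in Grhl3-null). Tested on simulated data, the fits recovered 192 of 200 genes changed by a log2 fold of 1 between genotypes, with 5 wrong calls. Against T-positive progenitors they recovered 200 of 200 changed by 2, with 1 wrong. In the interaction they recovered 161 of 200 changed by 1, with 13 wrong. Whether these values hold for the measured libraries, or for genes with few counts, was not tested. Alternatives were DESeq2 1.42.0, RLE size factors, other filters, thresholds and gates, a replicate block, cells of 1 sex, thinned cells and leaving out each library. Leaving out libraries in the interaction, and the share among Nkx1-2 and Sox2 cells, were added after seeing the data. Some items are not reported here. Near-identical transcripts were matched with blastn 2.17.0+.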

Additional observations from a re-analysis of the deposited data

Results flagged for a closer look

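The genotype difference in the preneural cells differed from that in a neighbouring population for the following named genes, by the interaction term in edgeR (adjusted p under the threshold). Each value is the log2 fold change of Grhl3-null over WT in the preneural cells minus that in the neighbour, so a negative value means a lower fold in the preneural cells.

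Against T-positive progenitors, the caudal genes Cdx1 (-0.75), Cdx2 (-0.64), Grsf1 (-0.72) and Fgf8 (-0.53), the Fgf feedback gene Spry1 (-0.64) and the proneural gene Neurog2 (-0.94) had a lower fold. The ligands Wnt3a (1.18) and Fgf15 (0.90), the Bmp antagonist Nog (0.90), the neural gene Sox1 (0.80) and Hoxc10 (1.85) had a higher one. Foxd3 (5.69), Spink1 (3.09), Ttr (4.16), Afp (4.19), Apoa1 (2.96) and Cdh5 (2.82) also passed with a higher fold. These 6 values are fitted from levels at or near 0 in some libraries, depend on the prior count and are no bound. In preneural cells of WT replicates 1 and 2 and Grhl3-null replicates 1 and 2, Foxd3 was at 0, 1.81, 4.01 and 5.84 CPM and Afp at 0.113, 0.106, 1.74 and 0.955 CPM. In T-positive progenitors Foxd3 was at 0.0460, 1.20, 0 and 0.109 CPM and Afp at 3.64, 0.299, 1.24 and 1.09 CPM. None of the other 4 was above 4 CPM in any preneural library. Their values also moved with the library left out: Apoa1 from 0.42 to 3.49, Ttr from 1.61 to 4.60 and Afp from 1.63 to 5.11, among others. When each of the 4 libraries was left out in turn, Cdx2 and Grsf1 were called in 4 of 4, Cdx1 in 3, Fgf15, Hoxc10, Neurog2, Sox1 and Ttr in 2, and the others in 1.

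Against the Nkx1-2-negative neural cells, Cdx1 (-0.89) and Grsf1 (-0.86) had a lower fold, as did the Hedgehog receptor Ptch1 (-0.53), the floor plate gene Foxa2 (-1.21), the p53 target Phlda3 (-1.24) and Fgfbp3 (-0.79). Cdx4 (0.94), Hoxa9 (0.91), Hoxd1 (1.18), Hoxd9 (2.03), Wnt5a (1.14), Bambi (1.23), Cited1 (0.88), Krt8 (1.52) and Krt18 (1.18) had a higher fold, as did the mesoderm genes Foxf1 (1.58), Hand1 (2.58), Hand2 (2.46), Pitx1 (2.497) and Prrx1 (2.69). Several of these values moved with the library left out, among them Krt8 (0.60 to 2.48), Krt18 (0.43 to 1.89) and Hoxd1 (0.59 to 1.61). The sex-linked genes Ddx3y (-1.98), Eif2s3y (-1.92), Kdm5d (-1.67), Uty (-2.44) and Xist (2.44) passed too, beside male shares of 8.00% and 9.47% in WT and 89.3% and 93.0% in Grhl3-null neural cells. Cdx4, Hoxa9, Grsf1, Fgfbp3, Eif2s3y and Xist were called in 4 of 4 sets that left out a library, Pitx1, Prrx1 and Ptch1 in 3, Foxa2 and Kdm5d in 0, and the others in 1 or 2.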

How the results depend on the processing

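Between genotypes, with 97 higher and 109 lower genes, the counts were 38 and 54 in DESeq2, 211 and 183 with no filter on low counts, 47 and 50 at a minimum log2 fold change of 1, 239 and 369 with no minimum fold, 212 and 218 with T at most 1 UMI, 64 and 53 in male cells and 194 and 235 in female cells. Leaving out 1 library at a time gave 95 to 137 higher and 78 to 164 lower genes. With the replicate block they were 132 and 138. Same-numbered libraries deviated together with a correlation of 0.0334 across 7636 genes, so the numbers were not taken to pair the libraries. Fits on thinned sums called 127 higher genes against T-positive progenitors, beside 248 unthinned, and 103 higher and 76 lower against the neural cells, beside 253 and 142. The interaction, with 40 genes against T-positive progenitors and 84 against neural cells, gave 101 and 212 with no filter, 108 and 33 in male cells and 14 and 31 in female cells. It gave 7 to 68 and 15 to 171 without 1 library, where the lone library of a genotype is assumed to vary like the others.

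Of the 64 named genes called between genotypes, 64 kept direction and call with RLE size factors, no filter and the replicate block, 43 in DESeq2, 28 of 56 measured in male and 33 of 55 in female cells. The log2 fold change turned in male cells for Bhlha9 (0.29), Hoxc9 (0.73), Ddx3y (-0.13), Kdm5d (-0.0891) and Uty (-0.13), and in female cells for Evx1 (0.10), Fgf15 (-0.31), Hba-x (-0.0438), Msx3 (-0.63), Nr2f1 (-0.70), Pou3f2 (-0.46) and Xist (0.28). The difference from neural cells turned in male cells for Kdm5d (0.30) and Hoxa9 (-0.14), and in female cells for Hoxd9 (-0.48), Prrx1 (-0.19), Cdx4 (-0.0144), Cited1 (-0.26), Foxa2 (0.28), Krt8 (-0.32), Krt18 (-0.44) and Ptch1 (0.22). That from T-positive progenitors turned in female cells for Apoa1 (-1.01). Xist and the Y-linked genes set the sex calls, so their values within a sex are bound by that choice and carry no test. They are among the named genes counted here. For the other genes the cause was not tested. The log2 ratio of the share stayed above 0, from 0.08 to 0.57, over the gates, filters and denominators tried. The main limits are 1 pool of embryos per genotype, sex that differs between the pools, and T counts of 0. Such counts may miss T, at a rate not measured at the depth of the chosen cells.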

Other observations

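Genes around Grhl3 were called more often than genes elsewhere. Within 10 Mb of Grhl3 on chromosome 4, a window chosen after the values were seen, 18 of 197 genes tested were called between genotypes (9.14%; 6 higher, 12 lower), against 187 of 11641 elsewhere (1.61%). Of the 18, all measured in both sexes, 17 had the same sign in both and 6 were called in both. Of the called genes elsewhere, 136 were measured in both sexes, 103 had the same sign and 9 were called in both. Stmn1, a microtubule regulator, Hdac1, a histone deacetylase, and Tcea3, an elongation factor, were among the 18.

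Some of the largest folds were in genes with near-identical copies. Gm10036 (5.53 and 3.94 CPM in WT, 351 and 313 CPM in Grhl3-null) is 99.3% identical to Rpl11, a ribosomal protein gene, over the aligned bases. Rpl11 went the other way (3619 and 3576 against 2898 and 2914 CPM, log2 fold change -0.33), and the sum of both had a log2 fold change of -0.15. Gm10093 is 99.4% identical to Hdac1, and their sum had -0.47. How reads were divided between such copies is uncertain.

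Some genes that were not called between genotypes had folds of opposite sign in the sexes, each past an adjusted p of 0.05 in edgeR in both. The log2 fold change in male and in female cells was -1.09 and 0.50 for Lix1, -1.08 and 0.39 for Cdx4, -0.94 and 0.48 for the ephrin receptor Epha5, 0.74 and -0.59 for Ptn, and 1.70 and -1.86 for Fam181b. The genes were picked after their values were seen, and the difference between the sexes was not tested.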
